A study of Mus musculus with 12 samples.

Results

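Called peaks of pan-lysine-crotonylation (pan-Kcr) chromatin were described at 6 mouse genes that move the neurotransmitter glutamate across membranes, Slc17a6, Slc17a7, Slc17a8, Slc1a1, Slc1a2 and Slc1a3. They are 6 of 21887 protein-coding genes on chromosomes 1 to 19, X and Y in the RefSeq table of GRCm38.p6. Every peak that overlapped the gene or the 5 kb on either side of it was taken. This gave 65 of the 331236 homecage peaks and 1 of the 16002 learning peaks on those chromosomes. All 6 genes encode transporters, and no glutaminase gene was analysed here.

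The peaks came from dorsal hippocampus of C57BL/6J mice. In one group (learning) the mice were trained in spatial object recognition, a task on the location of objects, and in the other (homecage) they stayed in the home cage. Each group had 1 library from chromatin immunoprecipitation and sequencing (ChIP-seq). The antibody recognises crotonylated lysine in general, in histones or in other proteins. The labels give no age, sex or number of pooled animals for these libraries and no interval between training and dissection. Chromatin was fixed for 10 min with 1% formaldehyde and sheared by sonication to 200 to 500 bp.

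Glutamate is packed into synaptic vesicles by the vesicular glutamate transporters, released, and then cleared by sodium-driven carriers of the plasma membrane. Slc17a7 (VGLUT1) is the vesicular transporter of most cortical and hippocampal principal neurons, Slc17a6 (VGLUT2) is used mainly by subcortical glutamate neurons, and Slc17a8 (VGLUT3) is found in a few neuron types that also release another transmitter. Slc1a1 (EAAC1) takes up glutamate into neurons, whereas Slc1a2 (GLT-1) and Slc1a3 (GLAST) are the main carriers of astrocytes, which turn glutamate into glutamine and return it to neurons. Lysine crotonylation of histones is an acylation found at active chromatin. The tissue was not sorted, so fewer cells of a type and less mark per cell cannot be told apart.

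With 1 library per group there is no replicate check, and each value below describes these 2 peak lists. The homecage list was 20.7 times as long as the learning list, and the read depth behind either is unknown. A site without a learning peak is therefore a site where none was called at this depth. The files give the position and width of each peak and no strength.

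Sequences of 4 gene starts are shown. Of these, 3 had a peak over or within 1 kb of the start. Slc17a7, the main vesicular transporter of the hippocampus, is shown for comparison. Slc1a2 also had a homecage peak within 1 kb of its gene start, but its only RefSeq promoter lies 48199 bp inside the gene and is not shown. Each sequence is the RefSeq promoter of GRCm38.p6, 250 bases before to 50 bases after the annotated start, 5′ to 3′ on the strand of the gene. The first is Slc1a3 (chr15:8710758-8711057, minus strand), the only one of the 8 RefSeq promoters of the 6 genes that a peak of either list overlapped. Capitals mark the 293 of 300 bases that lay under a homecage peak.
Slc1a3: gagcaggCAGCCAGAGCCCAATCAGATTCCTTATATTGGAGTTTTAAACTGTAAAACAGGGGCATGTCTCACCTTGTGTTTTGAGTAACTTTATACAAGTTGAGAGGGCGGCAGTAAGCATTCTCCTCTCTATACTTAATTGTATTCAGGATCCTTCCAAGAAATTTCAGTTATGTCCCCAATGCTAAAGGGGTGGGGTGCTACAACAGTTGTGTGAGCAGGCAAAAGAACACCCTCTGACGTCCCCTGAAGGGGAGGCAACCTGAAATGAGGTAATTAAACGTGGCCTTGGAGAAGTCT
In the other sequences capitals mark CG dinucleotides. Slc17a8 (chr10:89621200-89621499, minus strand) had the only learning peak, beginning 365 bp past its start. Slc1a1 (chr19:28834885-28835184, plus strand) had a homecage peak beginning 176 bp past its start. Slc17a7 (chr7:45163671-45163970, plus strand) had no peak of either list within 2 kb of its start.
Slc17a8: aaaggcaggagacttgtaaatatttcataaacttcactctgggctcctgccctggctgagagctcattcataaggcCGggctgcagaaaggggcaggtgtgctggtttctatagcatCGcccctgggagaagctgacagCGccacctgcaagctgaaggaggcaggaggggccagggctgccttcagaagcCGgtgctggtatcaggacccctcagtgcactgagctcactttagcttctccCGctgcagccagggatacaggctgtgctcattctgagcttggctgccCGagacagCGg
Slc1a1: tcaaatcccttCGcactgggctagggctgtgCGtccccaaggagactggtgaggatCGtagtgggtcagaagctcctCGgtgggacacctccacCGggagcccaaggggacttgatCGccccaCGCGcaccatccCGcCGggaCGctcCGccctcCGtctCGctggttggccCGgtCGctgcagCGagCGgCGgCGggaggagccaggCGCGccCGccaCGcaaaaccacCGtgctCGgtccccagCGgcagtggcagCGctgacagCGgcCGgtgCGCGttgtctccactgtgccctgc
Slc17a7: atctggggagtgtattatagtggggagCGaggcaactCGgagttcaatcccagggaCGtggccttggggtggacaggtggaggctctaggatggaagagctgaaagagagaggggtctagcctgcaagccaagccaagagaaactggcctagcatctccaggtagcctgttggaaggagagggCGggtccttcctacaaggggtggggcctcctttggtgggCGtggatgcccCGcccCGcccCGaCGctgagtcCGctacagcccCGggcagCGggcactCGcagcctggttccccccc
The promoter under the homecage peak was the poorest in CG of these 4, with 3 CG dinucleotides in Slc1a3 against 7 in Slc17a8, 13 in Slc17a7 and 32 in Slc1a1. It was not the poorest of all 8. The promoter of Slc1a2 held 1 CG and the second promoter of Slc17a6 also 3, and no peak overlapped either. A homecage peak overlapped 1 of the 8 member promoters and 17.9% of all 32851 RefSeq promoters, and a learning peak 0 of 8 and 4.15%. By CG content, a homecage peak overlapped 10.6% of those with 0 to 4 CG, 15.5% with 5 to 14 and 27.8% with 15 or more. For learning peaks these shares were 0.696%, 2.27% and 9.41%. The covered promoter of Slc1a3 thus belonged to the class least often covered, as did the uncovered promoter of Slc1a2 and the uncovered second promoter of Slc17a6. The uncovered promoter of Slc1a1, with more CG than 90.5% of promoters, belonged to the class most often covered.

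All 6 genes had homecage peaks, and only Slc17a8 had a learning peak. Among all protein-coding genes, 90.5% had a homecage peak and 30.9% a learning peak in the same window, so that homecage peaks at all 6 genes are near the background. Longer genes have more room for peaks. Among genes of 0.5 to 2 times the length of the member, a learning peak was present in 25.4% for Slc17a7, 38.2% for Slc17a8, 39.2% for Slc17a6, 45.6% for Slc1a3, 46% for Slc1a1 and 53.8% for Slc1a2. The single learning peak made up 1.52% of the 66 peaks at the members (exact Clopper-Pearson 95% interval 0.0384 to 8.16%, counting error only). In both lists together the learning share was 4.61%, which lies inside that interval, so a difference was not detectable with this number of peaks.

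**Figure D1:**
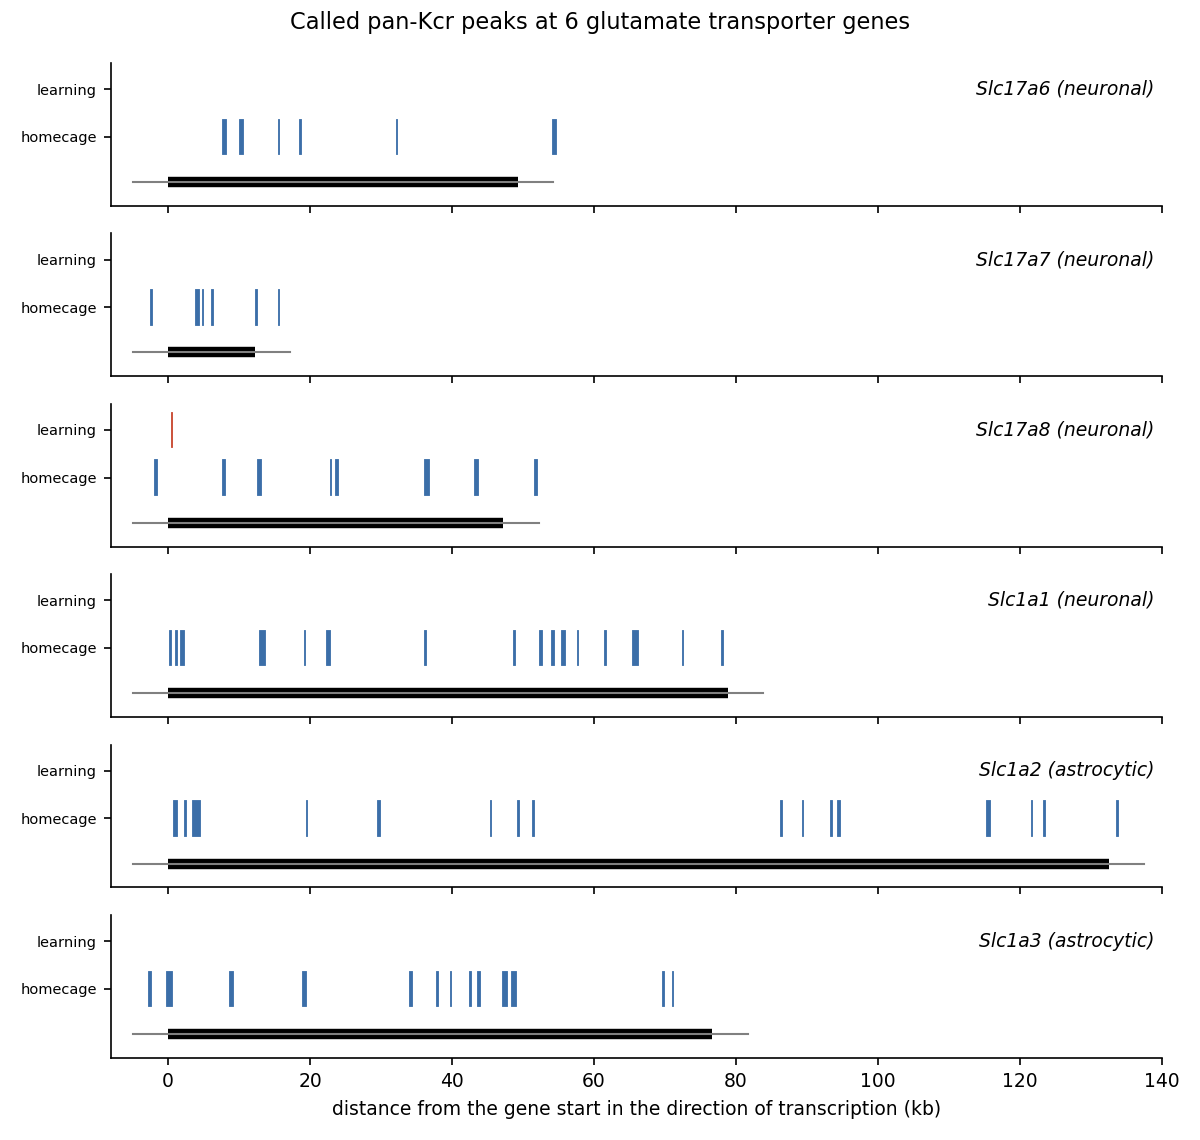
Map of every called pan-Kcr peak at the 6 genes, with the distance from the gene start in the direction of transcription in kb on the x axis. Black bars are gene bodies, grey lines the window with 5 kb on either side, blue boxes the 65 homecage peaks and the red box the 1 learning peak, at the start of Slc17a8. Narrow boxes carry a thin outline, and a peak that crosses the edge of the window is drawn whole.

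Of the vesicular transporters, Slc17a8 lies on chromosome 10 from 89574020 to 89621249 on the minus strand. Its learning peak (89620661 to 89620884, 224 bp) was inside the gene, 365 to 588 bp past the start, and 30.5% of all learning peaks were narrower. No homecage peak overlapped it. The nearest homecage peak was 404 bp wide and lay upstream of the gene, with 1891 bp between the peaks. Across the whole learning list, 43.1% of peaks overlapped a homecage peak, so the lack of a partner at 1 site is common. Slc17a8 had 8 homecage peaks of 147 to 733 bp, of which 6 lay in the gene, and none was within 1 kb of either gene end. RefSeq gives Slc17a8 a further start 21434 bp inside the gene, and a homecage peak of 147 bp lay 1326 bp from it.

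Slc17a7 is the shortest member, 12.2 kb on chromosome 7 from 45163921 to 45176139. It had 6 homecage peaks, of which 3 lay in the gene body, 1 upstream and 2 past its 3′ end. Those inside measured 488, 147 and 313 bp and began 3821 to 5989 bp past the start. Both downstream peaks, 168 and 192 bp wide, overlapped the neighbouring gene Gfy, which is read from the opposite strand, and a peak call does not say to which of the 2 genes it belongs. The first of them began 69 bp past the 3′ end of Slc17a7. The second (45179371 to 45179562) began 3232 bp past that end and lay just inside the start of Gfy, at 45179597.

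Slc17a6, 49.3 kb on chromosome 7 from 51621830 to 51671126, also had 6 homecage peaks, and these were arranged differently. The first began 7613 bp past the start, the next ones were 454, 204, 274 and 185 bp wide, and no peak began more than 32062 bp past the start within the gene. The sixth, 502 bp wide, began 4792 bp past the 3′ end and crossed the edge of the window. Slc17a6 had no peak of either list within 1 kb of a gene end, and none within 3 kb.

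Among the plasma membrane carriers, neuronal Slc1a1 (chromosome 19, 28835135 to 28913960) had 16 homecage peaks, all within the gene body. A group of 3 lay at its start, with widths of 167, 172 and 537 bp, the first beginning 176 bp and the last ending 2210 bp past the start. These 3 also lie in Gm52404, a noncoding RNA gene on the opposite strand that overlaps the start of Slc1a1. A second group of 6 peaks lay between 48592 and 61697 bp, and the widest peak of the gene, 900 bp, began at 65367 bp. No learning peak fell in its window. The nearest one (28827503 to 28827848, 346 bp) was upstream, with 7286 bp between it and the gene, also inside Gm52404, and no homecage peak overlapped it.

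Slc1a2, the carrier responsible for most glutamate uptake in the forebrain, is the longest member (chromosome 2, 102658239 to 102790784, 132546 bp). It had 16 homecage peaks and 0 learning peaks. As in Slc1a1, 3 of them lay close to the gene start, beginning 742, 2216 and 3373 bp past it. The third was 1061 bp wide (102661612 to 102662672), the widest of the 65, and 97.6% of all homecage peaks were narrower. Of these 3 peaks, the first covers the start of LOC115489466, a noncoding RNA gene read in the same direction. That start lies 1069 bp past the start of Slc1a2, which the peak does not reach. The call cannot be assigned to 1 of the 2 starts. The other 2 peaks lie inside LOC115489466. The RefSeq promoter table holds 1 start for Slc1a2, 48199 bp inside the gene, and the homecage peak nearest to that start, 358 bp wide, lay 897 bp from it. The longest stretch without a peak among the 6 genes, 34647 bp, lay in the middle of Slc1a2.

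Slc1a3 (chromosome 15, 8634124 to 8710807) had 13 homecage peaks and 0 learning peaks. The peak over its start (8710318 to 8711050) was 733 bp wide, wider than 91.1% of homecage peaks, and is the one whose bases are in capitals above. It reached from position -243 to position 489 bp relative to the start. The start of Gm31340, a noncoding RNA gene read in the other direction, lies 219 bp away under the same peak, so the call cannot be assigned to 1 of the 2 starts. Another 7 of its peaks, 147 to 746 bp wide, were grouped between 33925 and 49008 bp past the start, in the middle of the gene. Its nearest learning peak was 188.9 kb from the gene, farther than for the other 5 members.

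Homecage peaks lay within 1 kb of a gene end in 4 of the 6 genes, at the start of Slc1a3, the 3′ end of Slc17a7 and both ends of Slc1a1 and Slc1a2. The background was 60.9% of protein-coding genes, and 62.1 to 67.3% of the genes of like length across the 6 members. At gene starts, the count was 3 of 6 (Slc1a1, Slc1a2 and Slc1a3) beside 48.3% of the 17492 protein-coding genes with a known strand, and at 3′ ends it was 3 of 6 beside 29.7%. The peak counted at the 3′ end of Slc1a2 began 998 bp past it, just inside the limit. A learning peak lay within 1 kb of an end in 1 of 6 genes, at the start of Slc17a8, beside 15.6% of protein-coding genes. At starts alone the background of learning peaks was 14.4%, and at 3′ ends, where no member had one, it was 1.84%. No member had both a learning and a homecage peak at its ends.

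The homecage peaks were spread along the genes. Of the 57 in gene bodies, 20 had their centre in the first of 3 equal parts of the gene, 20 in the middle part and 17 in the last. A further 3 lay upstream and 5 downstream. Widths ran from 147 to 1061 bp with a median of 356 bp, close to the median of 351 bp of the whole homecage list, and 24.6% reached 500 bp, beside 24.8% of the list. By gene the median width ran from 196.5 bp in Slc17a7, none of whose peaks reached 500 bp, to 415.5 bp in Slc17a8. Exactly 147 bp, the lowest width in the list, was the width of 7 of the 65 peaks and of 10.4% of all homecage peaks.

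**Figure D2:**
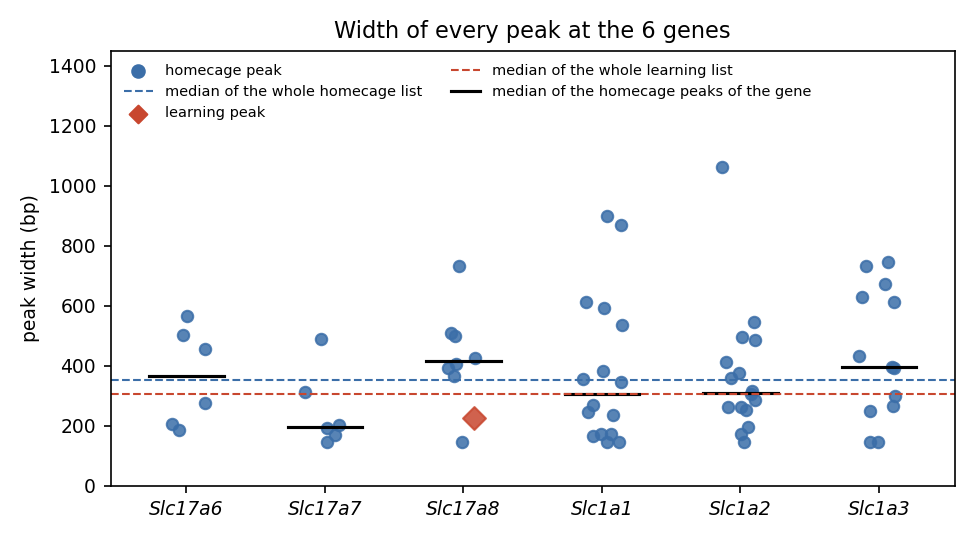
Width in bp of each peak at the 6 genes on the y axis, with 1 blue point per homecage peak and a red diamond for the learning peak of Slc17a8 (224 bp). Black bars are the median of the homecage peaks of each gene, and dashed lines the medians of the whole homecage (351 bp) and learning (306 bp) lists; points are spread sideways for visibility only.

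Peak density allows genes of different length to be compared. Homecage peaks per kb of gene plus 5 kb on either side were most frequent at Slc17a7, with 0.27 per kb (exact Poisson 95% interval 0.0991 to 0.588, counting error only). Slc1a1 followed with 0.18 per kb (0.103 to 0.293). Slc1a3 had 0.15 per kb (0.0799 to 0.257) and Slc17a8 nearly as many, 0.14 per kb (0.0604 to 0.275). The lowest densities were 0.112 per kb at Slc1a2 (0.0642 to 0.182) and 0.101 per kb at Slc17a6 (0.0371 to 0.22). Each value lies within the interval of the next gene in this order, so these counts are too small to separate neighbours in the order. Farther apart in the order, the value of Slc17a7 lies above the intervals of Slc1a3, Slc1a2 and Slc17a6. Its own wide interval includes the values of those genes, and differences between genes were not tested. The median of all protein-coding genes was 0.138 per kb. Slc17a7 was denser than 91.8% of genes of like length and Slc1a1 denser than 81.1%, while Slc17a6 exceeded 23.9% of such genes and Slc1a2 25.2%. In the 500 kb on each side of the windows, the density was nearly the same for all 6, from 0.131 to 0.147 per kb. Slc17a7 had 1.9 times the density of its surroundings, Slc1a1 1.23 times, Slc1a3 1.06 times, Slc17a8 1.02 times, Slc1a2 0.774 times and Slc17a6 0.772 times. The Slc17a7 value rests on 6 peaks, of which 3 lay in the gene body and 2 overlapped Gfy. None of the 6 reached 500 bp. By the share of bases under homecage peaks, Slc1a1 (6.92%), Slc17a7 (6.79%) and Slc1a3 (6.6%) were close together. Slc17a8 (6.07%) followed, then Slc1a2 (4.16%) and Slc17a6 (3.19%). The median of all protein-coding genes was 5.26%.

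**Figure D3:**
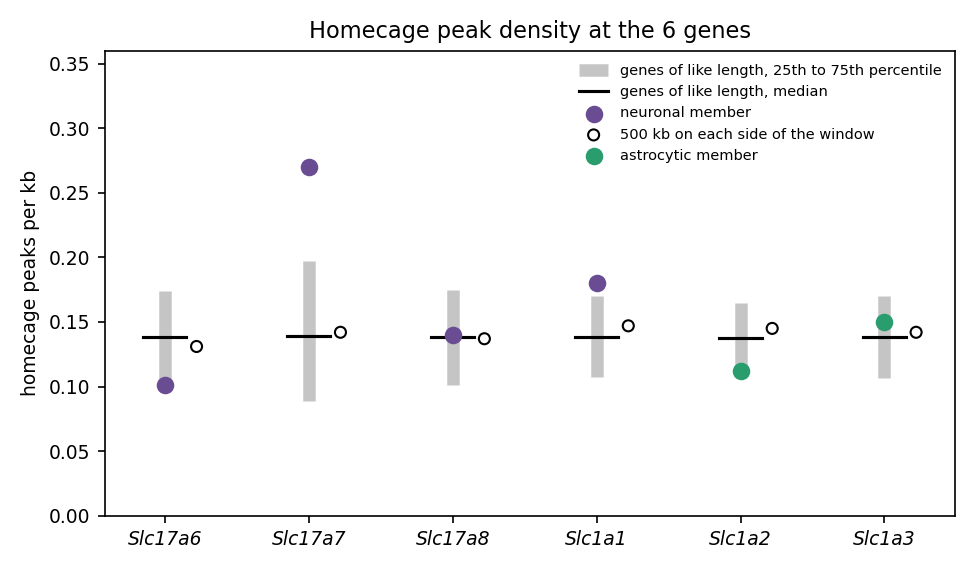
Homecage peaks per kb on the y axis for each gene (filled points, purple for the neuronal and green for the astrocytic genes). Grey bars and black lines give the 25th to 75th percentile and the median of protein-coding genes of 0.5 to 2 times its length, and open circles the 500 kb on each side of its window. Slc17a7 (0.27) and Slc1a1 (0.18) lie above the grey bars and Slc17a6 (0.101) just below its bar.

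Neuronal and astrocytic genes were then set side by side. The 4 neuronal genes (Slc17a6, Slc17a7, Slc17a8 and Slc1a1) held 36 homecage peaks in 227.6 kb, or 0.158 per kb, and the 2 astrocytic genes (Slc1a2 and Slc1a3) held 29 in 229.2 kb, or 0.127 per kb. The neuronal density was 1.25 times the astrocytic one, with a counting interval of 0.746 to 2.11 that includes equal density. The neuronal genes ranged from 0.101 to 0.27 per kb and the astrocytic ones from 0.112 to 0.15, so the astrocytic values lay within the neuronal range. Covered length differed even less, at 57.2 bp per kb in the neuronal and 50.8 bp per kb in the astrocytic genes. Learning peaks numbered 1 in the neuronal genes and 0 in the astrocytic genes. With 3 counts taken as the upper limit for a count of 0, the astrocytic genes allow up to 13.1 peaks per Mb. This is an approximate 1-sided 95% limit, unlike the exact intervals above. The neuronal value of 4.39 per Mb is below that limit, so a difference was not detectable. Homecage peaks within 1 kb of the start were seen at both astrocytic genes and at Slc1a1, and at none of the 3 vesicular transporters. This split depends on the limit of 1 kb, since within 3 kb of the start Slc17a8 (1526 bp away) and Slc17a7 (2330 bp away) had a homecage peak too, and only Slc17a6 had none.

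Away from the windows, the nearest learning peak was 58.4 kb from Slc1a2, 105.6 kb from Slc17a6, 109.8 kb from Slc17a7 and 188.9 kb from Slc1a3. The median distance over all protein-coding genes was 31223 bp. Among genes of like length, the nearest learning peak was still farther away in 11.1% for Slc1a3, 20.4% for Slc17a6, 21.9% for Slc17a7, 27.3% for Slc1a2 and 52.3% for Slc1a1. The 500 kb on each side held 3 learning peaks around Slc17a8, 4 around Slc17a6, 5 around Slc1a3, 7 around Slc1a2, 9 around Slc17a7 and 11 around Slc1a1. The peak nearest to Slc1a2, inside Pamr1, was the only one of these neighbours of the members that overlapped a homecage peak.

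Motifs were searched as exact letters on both strands of the 8 promoters. TGACG, the core of the CREB binding site, was present in the Slc1a3 promoter and in the second promoter of Slc17a6, and 20.8% of all promoters hold it. The full palindrome TGACGTCA, which contains TGACG, was in none of the 8 and in 1.79% of all promoters. GGGCGG, the core of the Sp1 site, occurred 3 times in Slc17a7 and once each in Slc1a1, Slc1a3 and the first promoter of Slc17a6, against 35.7% of promoters with it. CCAAT occurred 3 times in Slc1a3 and in none of the other promoters, beside 37.4% of all promoters. TATAAA was also found in the Slc1a3 promoter alone (13.6% of all promoters). CANNTG, the E-box of basic helix-loop-helix factors, occurred in each of the 8 promoters except that of Slc1a1 and in 72.3% of all promoters. CACGTG, 1 form of the E-box (7.15%), and TGANTCA, the AP-1 site (7.81%), matched none of the 8.

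Other genes of glutamate handling give the members a frame. A list of 23 genes held further carriers, the enzymes that interconvert glutamate with glutamine and other metabolites, and an ion cotransporter and a potassium channel that work beside uptake. Homecage peaks were present in the window of 22 of the 23 genes, with a median density of 0.134 per kb. The exception was Slc38a5, a glutamine transporter on chromosome X, with no peak in either list, named after its values were seen. Learning peaks were present in 11 of 23, beside the background of 30.9%, and at a gene end in 7 of 23, beside 15.6%. The members' own counts were 1 of 6 in the window and 1 of 6 at an end. These backgrounds are not matched for length, and most of the 23 genes are longer than the median protein-coding gene (17169 bp). Among genes of like length to a member, the share in the window ran from 25.4% (Slc17a7) to 53.8% (Slc1a2). At an end it ran from 15.1% to 21.7% for the same 2 members. An excess in the 23 genes was not tested.

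The widest of these learning peaks lay at Pcx (pyruvate carboxylase, which refills the precursor of glutamate in astrocytes), 1090 bp, with 2 learning and 16 homecage peaks in the window. Next came Slc1a4 (a neutral amino acid carrier of the same family as Slc1a1), 745 bp. Slc25a12 (a mitochondrial aspartate and glutamate carrier) followed with 468 bp, and Slc4a4 (a sodium bicarbonate cotransporter), a gene of 445799 bp with 4 learning peaks, with 435 bp. Slc25a22 (a mitochondrial glutamate carrier) had 412 bp and Glud1 (glutamate dehydrogenase) 402 bp. Slc38a3, a glutamine transporter, had 385 bp and Got1, the cytosolic aspartate aminotransferase, 342 bp. Named after their values were seen, Glul (glutamine synthetase of astrocytes) had 1 learning peak of 232 bp at its start and 5 homecage peaks, and Slc1a6, a carrier of cerebellar Purkinje cells, had 2 learning and 6 homecage peaks.

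Genes most like each member were found by whether each list had a peak within 1 kb of a gene end and elsewhere in the window, which is 4 presence values over 2 libraries. The pattern of Slc17a8, a learning peak at an end with homecage peaks only elsewhere, was shared by 1 of the 23 genes, Slc1a4, and by 1.37% of all protein-coding genes. Slc17a7, Slc1a1, Slc1a2 and Slc1a3 had 1 pattern, homecage peaks at an end and elsewhere without any learning peak. Slc25a18, Got2, Slc17a5, Slc38a1, Slc38a2 and Aldh18a1 shared it, as did 32.9% of all protein-coding genes. Slc17a6, with homecage peaks away from its ends only, matched Slc17a9, Slc7a11, Slc1a7, Slc25a13 and Slc1a5, and 22.7% of all genes.

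**Figure D4:**
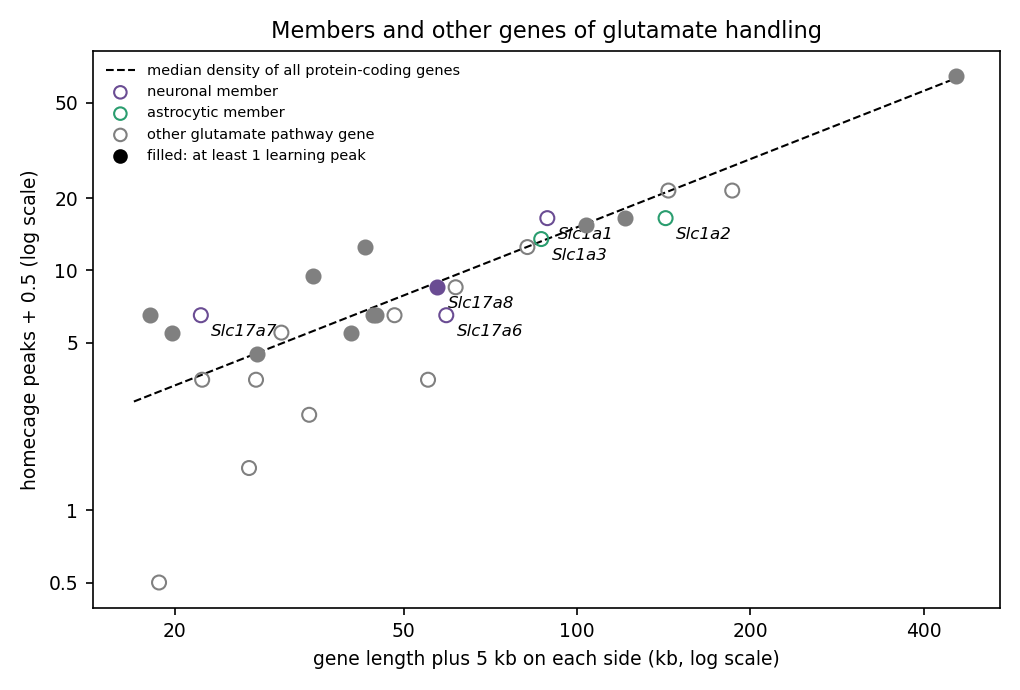
Homecage peaks (plus 0.5, log scale) against gene length plus 5 kb on each side (kb, log scale) for the 4 neuronal (purple) and 2 astrocytic (green) transporter genes and 23 other genes of glutamate handling (grey). Filled points have at least 1 learning peak, and the dashed line is the median density of all protein-coding genes (0.138 per kb); 1 transporter gene (Slc17a8) and 11 of the other genes are filled.

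Marker genes of the cell types of the tissue were examined in the same windows. Peaks do not measure expression, so the cell makeup could not be checked with them. The background was again 30.9% of protein-coding genes with a learning peak in the window, 15.6% with one at a gene end and 60.9% with a homecage peak at an end. Of 9 neuron markers, whose windows span 1320 kb, 5 had a learning peak in the window, 0 at an end, and 8 had a homecage peak at an end. Of 8 astrocyte markers, whose windows span only 194.8 kb, 4 had a learning peak in the window, 4 at an end, and 5 had a homecage peak at an end. Of 6 oligodendrocyte markers, 3 had a learning peak in the window, 2 at an end, and 5 had a homecage peak at an end. For the 5 microglia markers these counts were 1, 0 and 4. The lists are short and differ in gene length, and no difference between them was tested. Their part in the members' values was not tested.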

How the data were processed

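Pan-Kcr ChIP-seq peak lists of 1 learning and 1 homecage library were used. The 8 single-nucleus libraries and 2 input libraries of the series were not analysed here. The authors deposited, for each library, the start and end of broad peaks called at a p-value of 0.01 (per the peak names) in a file of 4 columns without strengths. The submitters' processing notes name Trimmomatic, BWA, MACS2 and the build mm10 without versions, and use of the input as control is not given in the sources used here. The only measurements are positions in bp.

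Genes and promoters came from RefSeq tables of GRCm38.p6, the assembly of mm10, and 1 symbol (Pc) was matched as Pcx through its synonym. Exons were not used. Strand came from the promoter table. Positions were converted to 1-based. A peak belonged to a gene if at least 1 bp fell in the gene or within 5 kb, and lists shared a peak with at least 1 bp of overlap. Intervals cover counting error only, and neighbouring peaks are not independent. The members and gene lists were chosen with earlier results of these data known. Named by rule were all members and, of the 23 further genes, the 8 with the widest learning peaks and those that shared the presence pattern of a member. Glul, Slc1a6 and Slc38a5 were named after their values were seen. Another 2 genes of that list are not reported here. No test between groups was possible. Counting functions were tested on simulated data. Python 3.11.15, matplotlib 3.10.9, scipy 1.17.1, pandas 2.3.3 and numpy 2.4.6 were used.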

Additional observations from a re-analysis of the deposited data

How the results depend on the processing

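No paired analysis was possible because learning and homecage are 1 library each. Of 120 values recomputed with other windows, overlap rules, width limits or members, 99 were counted as unchanged and 21 as moved. Unchanged meant equal, within 1.5 times or within the counting interval. The neuronal learning value in covered bases (984.3 bp per Mb) was counted as unchanged without a comparison, because its unit differs from peaks per Mb. Several others could not move, such as counts of 0 learning peaks in narrower windows. The count of 99 is therefore no measure of stability. The 65 homecage peaks fell to 16 with peaks of at least 500 bp and to 2 among the widest 16002 homecage peaks, which starts at 884 bp. The other windows, peak centres and merging of peaks closer than 1 kb gave 56 to 74. The learning total became 0 with peaks of at least 500 bp and 2 with 10 kb on either side, where the peak upstream of Slc1a1 enters. The learning peak of Slc17a8 had no homecage peak within 1 kb. With end windows of 3 kb, 5 members had a homecage peak at an end in place of 4, and 1 a learning peak as before. With each gene left out in turn, the ratio of neuronal to astrocytic homecage density ran from 1.05 to 1.41. The neuronal learning density ran from 0 (without Slc17a8) to 7.21 per Mb (without Slc1a1). Unknown depth and the unequal length of the lists limit every comparison between learning and homecage.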
